A study of Mus musculus with 12 samples.

Results

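The Notch pathway genes described here are 10 genes: the ligands Dll1, Dll3 and Jag1, the receptors Notch1, Notch2 and Notch3, and the target genes Hes1, Hes5, Hey1 and Nrarp. They were listed by name, with earlier results of these data known. Each was matched by gene symbol to 1 of the 49671 Ensembl genes in the deposited count table. Notch signalling passes between neighbouring cells. A ligand on one cell binds a receptor on the next, the receptor is cut by ADAM proteases and by gamma-secretase, and the freed intracellular domain joins the DNA-binding protein RBPJ to switch on targets. In the developing brain the pathway is known for keeping neural progenitors undifferentiated and for steering the glial lineages. Dll3 is an unusual ligand that stays largely inside the cell and does not activate receptors on neighbours.

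The study profiled total RNA from 9 mouse brain tumours and 3 normal brains, all fixed in formalin and embedded in paraffin. The tumours form 3 groups of 3, named in the labels by tumour genotype. IDH1_R132H is the mutant form of isocitrate dehydrogenase 1 found in human diffuse gliomas, IDH1WT is the same enzyme without the mutation, and PDGFA is a growth factor that binds the receptor Pdgfra. Every mouse carried floxed alleles that include Cdkn2a and Atrx, the normal brains too. The host genotype is written N::TVA, TVA being the avian receptor through which RCAS viruses enter mouse cells, and the normal brains came from TVA-negative mice. The labels give no age, batch, sex or pairing, do not say whether each sample was a separate animal or whether PDGFA was also given in the IDH1 tumours, and do not spell out the element that drives TVA. The p-values therefore measure the spread between these samples, which may be in part technical.

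Library totals ran from 6507923 to 14277395 counts, of which 1351 to 5110 fell on the Notch genes. Levels are CPM, read counts divided by the scaled library size, and all 10 genes passed the low-count filter. Of the 12 libraries, 2 stood apart. IDH1_R132H tumour 3 had 45.7% of its counts on ribosomal-RNA-like loci, against 1.65% to 17.5% elsewhere. PDGFA tumour 1 lay at 45.5 on the first principal component, among the normal brains at 42.3 to 45.8, while the other tumours lay between -42.5 and 2.81. Idh1 was measured at 22.5 to 27.0 CPM in normal brain and at 52.2 to 70.7 CPM in IDH1_R132H, 39.1 to 56.3 CPM in IDH1WT and 22.2 to 46.7 CPM in PDGFA tumours. Pdgfa ran from 28.1 to 30.5 CPM in normal brain, in IDH1_R132H from 42.4 to 53.5 CPM, in IDH1WT from 44.3 to 78.7 CPM and in PDGFA tumours from 40.4 to 96.7 CPM, and mouse and viral transcripts of these genes cannot be told apart. Whole-gene counts of Atrx and Cdkn2a check little, because floxed exons were not counted separately.

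The promoters of the members that rose or that varied most among tumours are shown first, so that each gene has its regulatory sequence beside its values. RefSeq windows on GRCm38.p6, from 250 bases before to 50 bases after an annotated start, were found for 8 of the 10 genes, in 9 windows because Dll1 has more than one. Hes1 and Hey1 had none in the table used. Capitals mark 2 motifs, chosen after the sequences had been seen and searched on both strands: CAGCTG, a palindromic E-box of the kind that bHLH factors bind, and TGGGAA, the core that RBPJ binds, which reads as TTCCCA when it lies on the other strand. No match of one motif overlapped a match of the other, and a match is a description, not a bound site. Each sequence reads 5′ to 3′ on the strand of its gene. The windows are chr7:28301736-28302035 (minus strand) for Dll3, chr17:15376883-15377182 (minus strand) for Dll1, chr2:137116471-137116770 (minus strand) for Jag1, chr2:25180508-25180807 (plus strand) for Nrarp and chr4:154960673-154960972 (plus strand) for Hes5.
Dll3: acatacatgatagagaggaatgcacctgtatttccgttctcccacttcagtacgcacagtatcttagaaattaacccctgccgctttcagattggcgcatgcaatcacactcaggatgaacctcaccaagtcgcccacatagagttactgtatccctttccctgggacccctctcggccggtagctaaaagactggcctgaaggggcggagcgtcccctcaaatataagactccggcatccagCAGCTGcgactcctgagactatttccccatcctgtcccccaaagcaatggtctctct
Dll1: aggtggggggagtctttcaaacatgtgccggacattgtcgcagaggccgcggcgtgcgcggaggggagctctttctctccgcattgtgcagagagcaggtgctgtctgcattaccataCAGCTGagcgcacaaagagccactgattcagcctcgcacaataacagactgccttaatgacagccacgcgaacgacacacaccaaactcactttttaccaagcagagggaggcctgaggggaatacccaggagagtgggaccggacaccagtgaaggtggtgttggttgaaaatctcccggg
Jag1: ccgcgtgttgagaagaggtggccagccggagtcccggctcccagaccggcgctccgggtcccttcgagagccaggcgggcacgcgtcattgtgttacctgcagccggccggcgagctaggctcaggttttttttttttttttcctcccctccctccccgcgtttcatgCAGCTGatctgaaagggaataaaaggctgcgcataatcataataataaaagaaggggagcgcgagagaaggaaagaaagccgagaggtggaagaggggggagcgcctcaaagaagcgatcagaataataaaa
Nrarp: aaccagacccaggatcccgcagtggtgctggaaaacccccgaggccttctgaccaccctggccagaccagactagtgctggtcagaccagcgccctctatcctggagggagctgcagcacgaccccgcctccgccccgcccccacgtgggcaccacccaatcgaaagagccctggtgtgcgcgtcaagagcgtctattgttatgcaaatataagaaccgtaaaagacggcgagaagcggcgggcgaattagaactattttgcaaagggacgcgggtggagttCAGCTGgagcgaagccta
Hes5: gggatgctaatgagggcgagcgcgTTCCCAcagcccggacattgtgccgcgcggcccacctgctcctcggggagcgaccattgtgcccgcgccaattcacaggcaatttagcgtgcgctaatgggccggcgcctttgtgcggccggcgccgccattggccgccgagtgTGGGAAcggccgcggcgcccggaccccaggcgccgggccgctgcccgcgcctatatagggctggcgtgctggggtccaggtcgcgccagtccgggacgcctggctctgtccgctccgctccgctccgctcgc
CAGCTG was present in 4 of the 9 windows, those printed for Dll3, Dll1, Jag1 and Nrarp, against 16.3% of all 32851 mouse promoter windows of the same length. Counted from the annotated start base as 0, the E-box began at -7 in Dll3, -132 in Dll1, -82 in Jag1 and 32 in Nrarp. TGGGAA was present in 1 of the 9 windows, that of Hes5, against 25.6% of all windows. Hes5 held it 2 times, beginning at -226 and -82, and both copies were part of the longer GTGGGAA, which 6.38% of windows hold.

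In tumours against normal brain, the ligands rose and most other members did not pass the test. Of the 10 genes, 3 rose (Dll3, Dll1 and Jag1) and 0 fell at an edgeR quasi-likelihood adjusted p under 0.05, against 3.71% of the 17812 tested genes that rose. The same 3 genes were the ones whose 9 tumours all lay above all 3 normal brains, which held for 4.67% of tested genes. The log2 fold change was above 0 for 9 of the 10 genes, with a median of 0.87, while it was above 0 for 8670 of all 17812 tested genes, with a median of -0.01. By DESeq2, Notch1 and Nrarp passed too, giving 5 of 10 against 11.7% of tested genes in either direction. Because the list was chosen with earlier results of these data known, these shares and those below describe it and do not test it. In these bulk samples, a change in the number of cells of a type and a change in RNA per cell cannot be told apart.

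**Figure D1:**
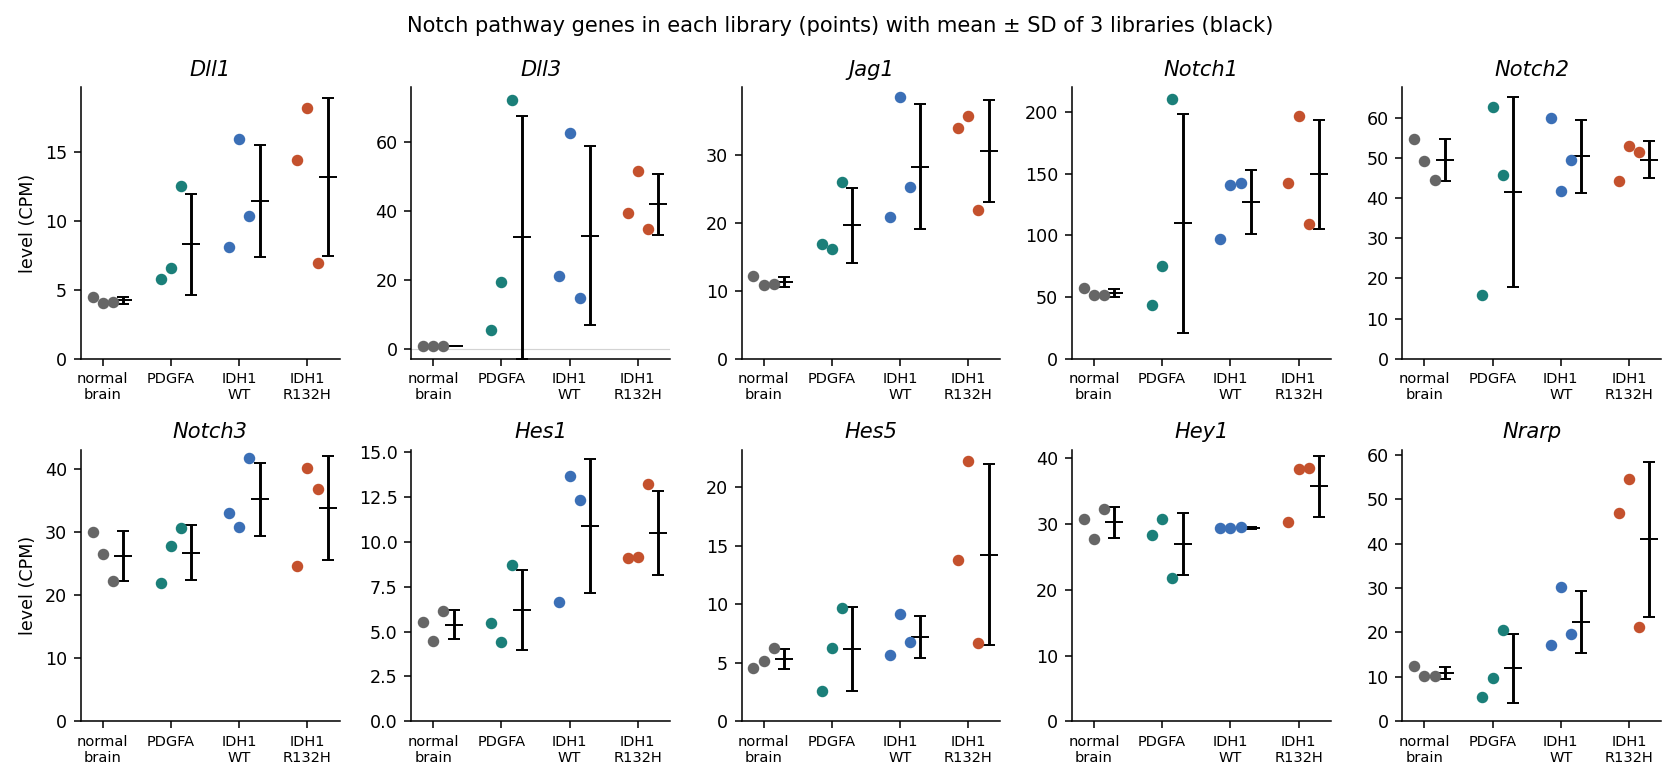
Level of each Notch gene (vertical axis, CPM, a scale of its own in every panel) in each library (points) of the 4 groups, with the mean and SD of 3 libraries in black. Dll3, Dll1 and Jag1 are above the normal brains in all 9 tumours, whereas Notch2, Notch3 and Hey1 overlap, and Dll3 in PDGFA tumours has an SD (35.2 CPM) larger than its mean (32.4 CPM).

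Dll3 (GRCm38 chromosome 7, 28293553 to 28302238, minus strand), the divergent ligand, had the widest difference of the 10. The normal brains had 0.808, 0.878 and 1.05 CPM, from 7, 8 and 12 reads. IDH1_R132H tumours had 39.5, 51.7 and 34.7 CPM, IDH1WT tumours 21.3, 62.7 and 15 CPM, and PDGFA tumours 5.48, 19.6 and 72.2 CPM. The groups did not overlap, and the PDGFA group held both the lowest and the highest of the 9 tumours. The mean was 35.8 ± 22.8 CPM in tumours (SD, n = 9) against 0.912 ± 0.124 CPM in normal brain (SD, n = 3). The log2 fold change was 5.25 (standard error 0.87, adjusted p = 0.0157 by edgeR), a 38.1-fold difference over a level of normal brain that rests on few reads.

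Dll1 (chromosome 17, 15367354 to 15376872, minus strand) encodes a ligand that activates Notch receptors on neighbouring cells. Its level was 4.50, 4.06 and 4.11 CPM in the normal brains. It was 14.4, 18.2 and 6.91 CPM in IDH1_R132H tumours, 8.08, 16 and 10.4 CPM in IDH1WT tumours and 5.81, 6.55 and 12.5 CPM in PDGFA tumours. Every tumour exceeded the normal brains, PDGFA tumour 1 by the least. Dll1 rose by 1.35 on the log2 scale (standard error 0.34, adjusted p = 0.0424 by edgeR), or 2.56-fold. That call was lost without IDH1_R132H tumour 1 (adjusted p = 0.0611) or 2 (0.0744), without IDH1WT tumour 2 (0.0594) or 3 (0.0601), and on the deposited log2 values (limma adjusted p = 0.0576). A non-coding gene on the opposite strand, A930024N18Rik, shares 867 exonic bases with Dll1 and had 12 to 48 counts a library, and the strand setting of the counting is not given in the sources used here. Notch1, Notch3, Hes5 and Nrarp also share exonic bases with opposite-strand genes, which had at most 24 counts in any library. The shared stretch was 2051 of 2582 exonic bases in Nrarp and 433 of 1363 in Hes5. How far this overlap altered the counts of these genes was not tested.

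Jag1 (chromosome 2, 137081456 to 137116644, minus strand), a ligand of the Serrate type, had the smallest standard error of the 3 ligands. The normal brains had 12.1, 10.9 and 10.9 CPM. IDH1_R132H tumours had 33.9, 35.7 and 21.9 CPM, IDH1WT tumours 20.8, 38.5 and 25.3 CPM, and PDGFA tumours 16.9, 16.1 and 26.0 CPM. All tumours were above the normal brains, with PDGFA tumours 1 and 2 closest to them. The log2 fold change was 1.18 (standard error 0.24, adjusted p = 0.0209 by edgeR), or 2.27-fold. The calls of all 3 ligands needed the 3 normal brains together: with any 1 of them left out the adjusted p was 0.0825 to 0.102 for Dll3, 0.0987 to 0.128 for Jag1 and 0.151 to 0.185 for Dll1, while the log2 fold changes were 5.17 to 5.37, 1.15 to 1.23 and 1.32 to 1.39 in the same order. Over all tested genes, fits that left out 1 library of any group called 0 to 2536, against 929 with every library kept.

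Among the receptors, Notch1 leaned the same way as the ligands and the other two did not differ beyond their spread. Notch1 (chromosome 2, 26457903 to 26516663, minus strand) stood at 57.4, 51.7 and 51.5 CPM in normal brain. IDH1_R132H tumours had 143, 197 and 109 CPM, IDH1WT tumours 97.4, 141 and 143 CPM, and PDGFA tumours 43.2, 75.1 and 211 CPM. Of the 9 tumours only PDGFA tumour 1 was below the normal brains. The log2 fold change was 1.25 (standard error 0.38, adjusted p = 0.0737 by edgeR), short of the threshold. It passed without PDGFA tumour 1 (adjusted p = 0.0093), without PDGFA tumour 3 (0.0261) and by DESeq2 (adjusted p = 0.00793). Notch2 (chromosome 3, 98013527 to 98150361, plus strand) ran from 16 to 62.8 CPM in tumours, with a median of 49.4 CPM, and from 44.5 to 54.7 CPM in normal brain. Its log2 fold change was -0.07 (standard error 0.28, adjusted p = 0.905 by edgeR), with PDGFA tumour 1 far below all others. Notch3 (chromosome 17, 32120820 to 32166852, minus strand), the receptor of vascular mural cells, ran from 21.9 to 41.7 CPM in tumours and 22.1 to 30.03 CPM in normal brain, a log2 fold change of 0.27 (standard error 0.18, adjusted p = 0.376 by edgeR).

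None of the 4 target genes passed the test in tumours as a whole. Nrarp (chromosome 2, 25180758 to 25183339, plus strand), a target that dampens Notch signalling in return, had 12.5, 10.2 and 10.2 CPM in the normal brains. IDH1_R132H tumours had 46.9, 54.6 and 21.3 CPM, IDH1WT tumours 17.2, 30.2 and 19.6 CPM, and PDGFA tumours 5.37, 9.78 and 20.6 CPM. The IDH1_R132H and IDH1WT tumours were all above the normal brains, but PDGFA tumours 1 and 2 were below them. The log2 fold change was 1.02 (standard error 0.38, adjusted p = 0.124 by edgeR), and it passed without PDGFA tumour 1 (adjusted p = 0.0318) and by DESeq2 (adjusted p = 0.0449).

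Hes5 (chromosome 4, 154960923 to 154962371, plus strand), a repressor that blocks proneural genes in progenitors, had 4.50, 5.16 and 6.21 CPM in normal brain. IDH1_R132H tumours had 13.8, 22.2 and 6.71 CPM, IDH1WT tumours 5.63, 9.15 and 6.77 CPM, and PDGFA tumours 2.57, 6.22 and 9.70 CPM. IDH1_R132H tumours 1 and 2 were the highest of the 12 samples and PDGFA tumour 1 the lowest. The log2 fold change over all tumours was 0.70 (standard error 0.39, adjusted p = 0.302 by edgeR). Hes1 (chromosome 16, 30064384 to 30067796, plus strand), the related repressor, ran from 4.39 to 13.7 CPM in tumours and 4.50 to 6.13 CPM in normal brain, a log2 fold change of 0.71 (standard error 0.28, adjusted p = 0.143 by edgeR). Hey1 (chromosome 3, 8663359 to 8667256, minus strand), a target prominent in vessels, ran from 21.8 to 38.5 CPM against 27.8 to 32.3 CPM, a log2 fold change of 0.01 (standard error 0.13, adjusted p = 0.971 by edgeR). With both libraries that stand apart left out, 6 of the 10 genes passed, the 3 ligands with Notch1 (adjusted p = 0.00581), Nrarp (0.00699) and Hes5 (0.0254). In that fit 2928 of all tested genes were called, against 929 with all 12 libraries.

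Divided by exon length, so that genes can be set against each other, the order of levels differed between the tissues. In normal brain Hey1 had the highest level, 9.27 ± 0.704 CPM per kb of exon (SD, n = 3). Notch2 (4.59 ± 0.477), Nrarp (4.24 ± 0.513), Hes5 (3.88 ± 0.633), Notch1 (3.76 ± 0.234), Notch3 (3.24 ± 0.488) and Hes1 (2.65 ± 0.404) followed on the same scale, each neighbouring pair within their SDs. Jag1 (1.94 ± 0.121), Dll1 (1.002 ± 0.0574) and Dll3 (0.320 ± 0.0437) stood at the bottom, apart from one another. In tumours the gene with the highest level differed between samples. Dll3 was the highest only in IDH1_R132H tumour 3, PDGFA tumour 3 and IDH1WT tumour 2. Nrarp was above Dll3 in IDH1_R132H tumours 1 and 2, and Hey1 was above it in the remaining tumours. By mean over tumours, Dll3 had the highest level at 12.6 ± 7.99 CPM per kb (SD, n = 9), and Dll1 the lowest at 2.60 ± 1.07. Between them Nrarp (9.71 ± 6.31), Hey1 (9.41 ± 1.57), Notch1 (9.05 ± 3.81), Hes5 (6.74 ± 4.24), Hes1 (4.51 ± 1.64), Jag1 (4.48 ± 1.41), Notch2 (4.37 ± 1.26) and Notch3 (3.94 ± 0.832) did not separate from their neighbours in that order beyond the SD among tumours.

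Set against normal brain one tumour group at a time, Dll3 passed in each, and the number of members called was 4 in IDH1_R132H, 2 in IDH1WT and 1 in PDGFA. These 3 comparisons share the same normal brains. In IDH1_R132H tumours Dll1 rose by 1.66 on the log2 scale (standard error 0.40, adjusted p = 0.03 by edgeR), Dll3 by 5.5 (SE 0.93, adjusted p = 0.0149), Jag1 by 1.44 (SE 0.27, adjusted p = 0.0184) and Nrarp by 1.91 (SE 0.44, adjusted p = 0.0271). That is 4 of 10 against 4.83% of tested genes called higher, and 7 of 10 by DESeq2 against 13.7% called in either direction. In IDH1WT tumours Dll3 rose by 5.13 (standard error 0.92, adjusted p = 0.0243 by edgeR) and Jag1 by 1.31 (SE 0.27, adjusted p = 0.0362). Here 2 of 10 passed against 1.57% of tested genes called higher, and 3 of 10 by DESeq2 against 7.14%. In PDGFA tumours Dll3 rose by 5.12 (standard error 0.92, adjusted p = 0.0472 by edgeR). This was 1 of 10 against 0.258% called higher, and again 1 of 10 by DESeq2 against 2.72%.

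**Figure D2:**
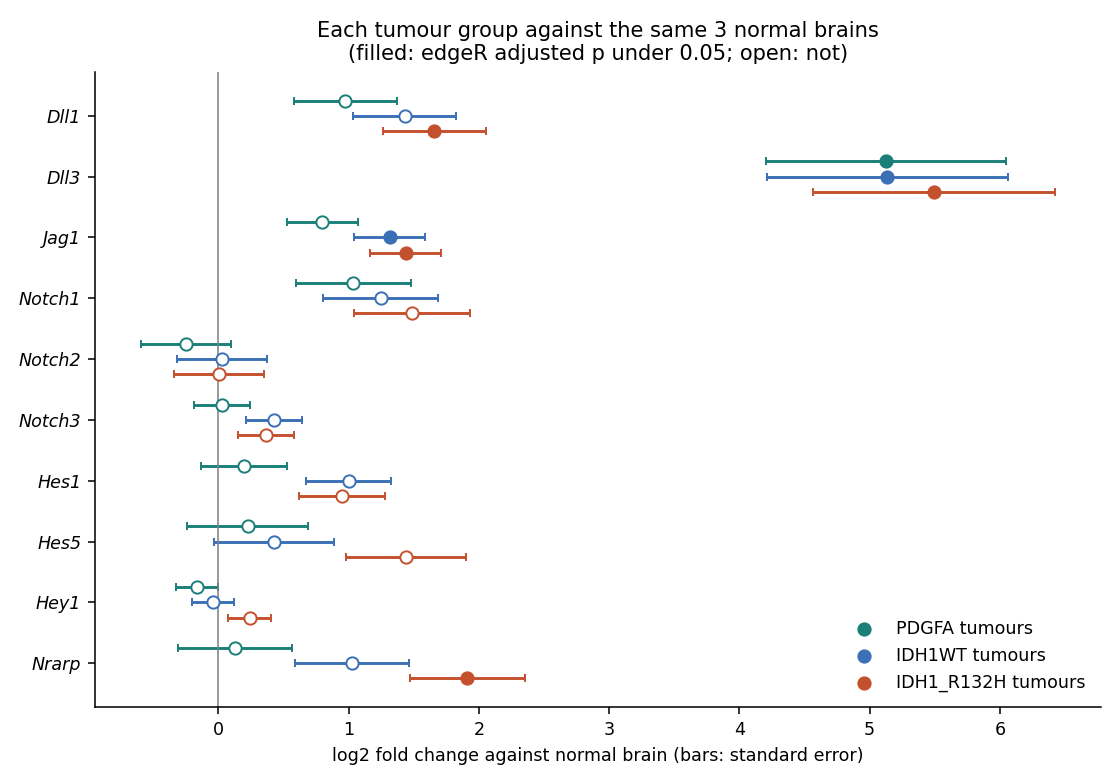
Log2 fold change of each Notch gene against the 3 normal brains (horizontal axis) for each tumour group, with bars of 1 standard error and filled points where the edgeR adjusted p is under 0.05. Dll3 lies near 5 in all 3 groups, and Nrarp runs from 0.13 in PDGFA through 1.02 in IDH1WT to 1.91 in IDH1_R132H.

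Counting members whose 3 tumours all lay above the 3 normal brains gave 7 of 10 in IDH1_R132H against 19.4% of tested genes, 7 of 10 in IDH1WT against 17.4%, and 3 of 10 in PDGFA against 8.23%. Dll1, Dll3, Jag1, Notch1, Hes1 and Nrarp were among the 7 in both IDH1 groups, with Hes5 in IDH1_R132H and Notch3 in IDH1WT as the other. In PDGFA they were Dll1, Dll3 and Jag1. The call counts rest on few samples: without any 1 normal brain no member passed in any of the 3 comparisons, without IDH1_R132H tumour 2 none passed for IDH1_R132H, and without IDH1WT tumour 2 or 3 none passed for IDH1WT. The count for IDH1_R132H was 2 without IDH1_R132H tumour 1 and 6 without PDGFA tumour 1 or 3, and that for IDH1WT was 1 without IDH1_R132H tumour 1 or 2 and 4 without PDGFA tumour 1 or 3. For PDGFA the single call was lost in 10 of the 12 fits that left out 1 sample, and without PDGFA tumour 1 it became 2. Over all tested genes, such fits called 0 to 2303 for IDH1_R132H, 0 to 1090 for IDH1WT and 0 to 828 for PDGFA. With every sample kept these were 1278, 307 and 54.

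Between tumour groups, the question was whether the Notch genes differ with the IDH1 genotype, and no member passed the edgeR test. In IDH1_R132H against the other tumours 0 of 10 members and 0% of tested genes were called (smallest member adjusted p = 0.646), and DESeq2 called 0 members and 0.14% of genes. Unadjusted p was under 0.05 for 3 members, Nrarp, Hes5 and Hey1, against 6.44% of genes. All 10 log2 fold changes were above 0, with a median of 0.36, while 8747 of all 17812 tested genes were above 0. In the same comparison 13 of 13 oligodendrocyte precursor markers (median 0.78) and 10 of 11 microglia markers (median 0.54) were above 0. So were 9 of 10 astrocyte, 9 of 10 mural cell, 6 of 11 neuron and 4 of 6 ependymal and choroid markers. Above 0 were only 1 of 12 endothelial, 0 of 8 proliferation and 0 of 9 oligodendrocyte markers (median -0.84 for the last). No marker was called, and their part in the result was not tested. Of the members, Nrarp had the largest log2 fold change, 1.33 (standard error 0.36, adjusted p = 0.646 by edgeR). Its level was 40.9 ± 17.4 CPM in IDH1_R132H (SD, n = 3) against 22.3 ± 6.94 CPM in IDH1WT (SD, n = 3) and 11.9 ± 7.82 CPM in PDGFA (SD, n = 3). Hes5 had 1.11 (standard error 0.38, adjusted p = 0.69 by edgeR) and Hey1 0.34 (standard error 0.14, adjusted p = 0.743 by edgeR). No member had all IDH1_R132H tumours above all 6 others, which held for 1.01% of genes.

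In IDH1_R132H against IDH1WT alone, 0 members and 0% of genes were called by edgeR, every member at an adjusted p of 1, and 0 members and 0% of genes by DESeq2. One member, Hes5, had an unadjusted p under 0.05, against 2.67% of genes. Its log2 fold change was 1.01 (SE 0.45), with IDH1_R132H tumour 3 inside the IDH1WT range. Hey1 was the 1 member whose groups did not overlap, higher in IDH1_R132H by 0.28 (SE 0.16), against 2.96% of genes.

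In IDH1_R132H against PDGFA, 0 members and 0% of genes were called by edgeR (smallest member adjusted p = 0.281, for Nrarp). Unadjusted p was under 0.05 for 5 members, Nrarp, Hes5, Hey1, Jag1 and Hes1, against 10.9% of genes. DESeq2 called 1 member, Nrarp, with a log2 fold change of 1.80 (SE 0.44, adjusted p = 0.0161), among 0.769% of genes. Nrarp and Hes1 had IDH1_R132H tumours all above PDGFA tumours, which held for 5.86% of genes. In IDH1WT against PDGFA, 0 members and 0% of genes were called by edgeR and 0 members and 0.0505% of genes by DESeq2. Hes1 alone had an unadjusted p under 0.05, against 5.83% of genes, and Notch3 alone did not overlap, with IDH1WT higher, against 4.32% of genes.

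Sample weights or the absence of a low-count filter changed the call for 2 members in IDH1_R132H against the other tumours. Nrarp and Hes5 passed with limma voom quality weights (adjusted p = 0.0135 and 0.0341) and without the filter. Over all genes the calls went from 0 to 245 with the weights and to 278 without the filter. IDH1_R132H tumour 3, the library with the large ribosomal share, was the lowest of its group for Dll1, Dll3, Jag1, Notch1, Hes5 and Nrarp and the highest for Hes1 and, by a small margin, Hey1, and the part of that share in the result was not tested.

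**Figure D3:**
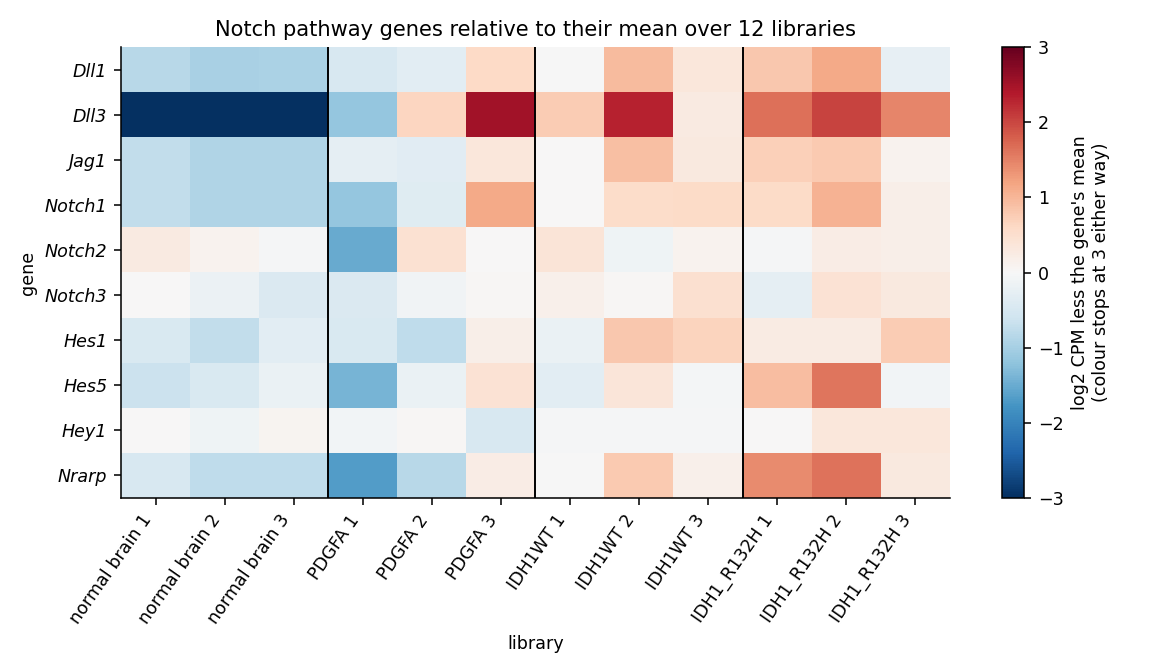
Log2 CPM of each Notch gene (rows) in each library (columns) less the mean of that gene over the 12 libraries, in colour that stops at 3 either way. Dll3 is at the cap in all 3 normal brains, PDGFA tumour 1 is below its gene mean in most rows, and IDH1_R132H tumours 1 and 2 have the highest values of the 12 libraries for Nrarp and Hes5.

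Over the 9 tumours, Jag1 varied together with Dll1, Nrarp and Hes5, while no relation of Dll3 passed by rank correlation. In log2 CPM, 17 relations of Dll3 or Jag1 with the other members were examined. Of these, 9 had an adjusted p under 0.05 by an exact two-sided permutation test of Pearson's r. The permutation ran over all 9 tumours without regard to group, so differences between tumour groups enter r, rho and their p-values. Genes outside the list were not examined this way, so the share of all genes that track Dll3 or Jag1 is unknown. Jag1 tracked Dll1 with r = 0.957 (permutation p = 0.000179, adjusted p = 0.00305) and rho = 0.95 (permutation p = 0.000353, adjusted p = 0.006). Without PDGFA tumour 2 and IDH1WT tumour 2, the samples farthest from the median of Jag1, r was 0.963 (permutation adjusted p = 0.0101). Jag1 tracked Nrarp with r = 0.898 (permutation p = 0.000973, adjusted p = 0.00827) and rho = 0.883 (permutation p = 0.00308, adjusted p = 0.0261), and r was 0.95 without those 2 samples (permutation adjusted p = 0.0101). Jag1 tracked Hes5 with r = 0.806 (permutation p = 0.00642, adjusted p = 0.0273) and rho = 0.85 (permutation p = 0.00607, adjusted p = 0.0344), and r was 0.97 without them (permutation adjusted p = 0.00337).

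Dll3 tracked the receptor Notch1 with r = 0.862 (permutation p = 0.00368, adjusted p = 0.0209) and rho = 0.75 (permutation p = 0.0255, adjusted p = 0.0529). Without PDGFA tumour 1 and IDH1WT tumour 3, the samples farthest from the median of Dll3, r was 0.906 (permutation adjusted p = 0.0346). The other 5 relations past the threshold were of Dll3 with Dll1, Jag1, Hes5 and Nrarp and of Jag1 with Notch1. They had r between 0.733 and 0.807 and did not pass once 2 samples were left out. By rho each had a permutation adjusted p of 0.0529. Dll3 with Notch2 changed sign, from r = 0.563 (permutation adjusted p = 0.186) to -0.844 (permutation adjusted p = 0.0596), on leaving out PDGFA tumour 1 and IDH1WT tumour 3. Each tumour group holds 3 samples, too few for a correlation within a group.

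Markers of some cell types also rose in tumours against normal brain, where 3.71% of all tested genes rose. The summed level of 13 oligodendrocyte precursor markers was 640 to 651 CPM in normal brain and 602 to 7158 CPM in tumours, with a median of 3588 CPM, and 10 of the 13 rose. Olig2, which specifies that lineage, had a log2 fold change of 3.37 (standard error 0.52, adjusted p = 0.0125 by edgeR). The precursor sum was 3301 to 7158 CPM in IDH1_R132H, 2383 to 6938 CPM in IDH1WT and 602 to 4473 CPM in PDGFA tumours. Proliferation markers summed to 7.39 to 13.5 CPM in normal brain and to 109 to 698 CPM in tumours, and 7 of 8 rose. No marker of any list was at 0 throughout the normal brains or throughout the tumours. The part of these cells in the result was not tested.

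PDGFA tumour 1, which stands apart from the other tumours, had a precursor sum of 602 CPM, below every normal brain, and a Dll3 level of 5.48 CPM, against at most 1.05 CPM in normal brain. Per 1000 CPM of precursor markers, a measure added after the values were seen, Dll3 was 1.26 to 1.63 CPM in normal brain and 4.17 to 16.2 CPM in tumours, all tumours above all normal brains. On the same scale Jag1 was 16.7 to 19.0 CPM in normal brain and 4.99 to 28.1 CPM in tumours, and Dll1 was 6.24 to 7.04 CPM against 2.09 to 9.66 CPM, both overlapping. Nrarp (15.7 to 19.5 CPM against 4.36 to 8.92 CPM), Notch1 (79.4 to 89.7 CPM against 20.3 to 71.7 CPM) and Hes5 (7.04 to 9.63 CPM against 1.32 to 4.27 CPM) were lower in all tumours than in all normal brains. Notch2 was lower in all tumours too (68.9 to 85.5 CPM against 6.01 to 41.9 CPM). Notch3, Hes1 and Hey1 overlapped. The precursor sum was above that of every normal brain in all tumours but PDGFA tumour 1. In tumours with a higher sum, a gene that did not change would be lower on this scale.

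**Figure D4:**
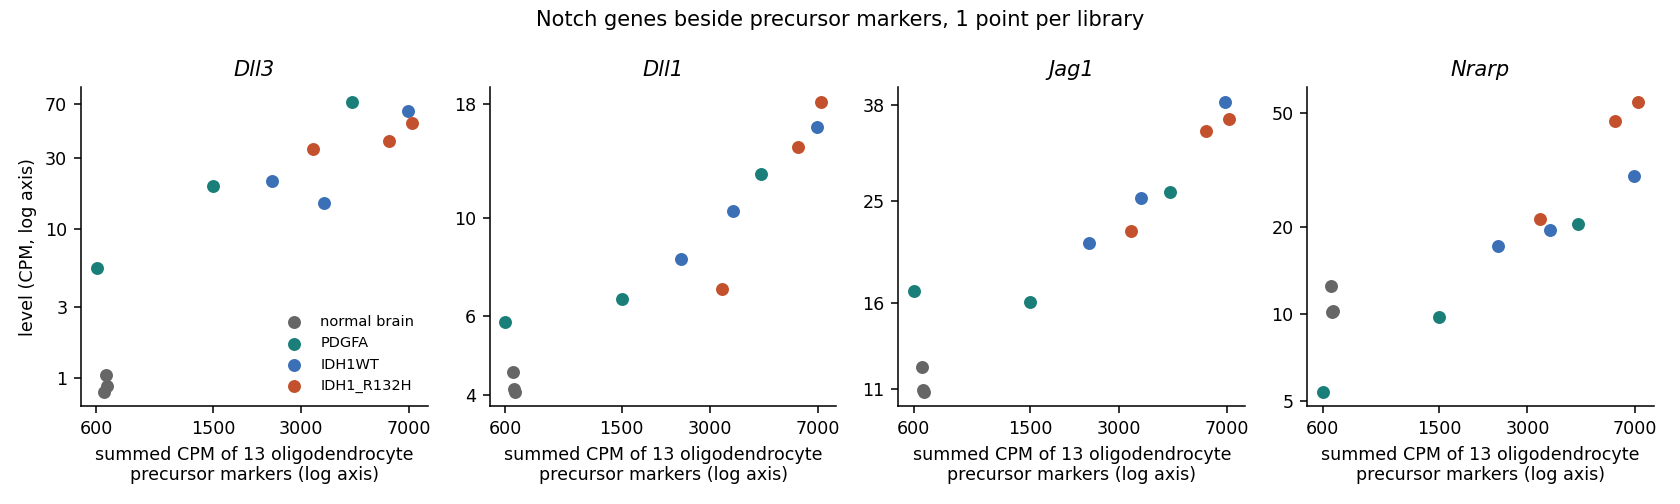
Level of Dll3, Dll1, Jag1 and Nrarp (vertical log axis, CPM) against the summed level of 13 oligodendrocyte precursor markers (horizontal log axis, CPM) in each of 12 libraries, coloured by group. PDGFA tumour 1, at 602 CPM of markers, has Dll3 above the normal brains and Nrarp below them.

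Other cell types that carry Notch genes were examined in the same way. Endothelial markers, of cells that use Dll4 and Jag1, summed to 201 to 228 CPM in normal brain and 252 to 399 CPM in tumours, and 6 of 12 rose. Mural cell markers, of cells that carry Notch3, summed to 188 to 210 CPM and 236 to 967 CPM, but without Cspg4, which precursors share, to 167 to 190 CPM and 170 to 430 CPM. Astrocyte markers summed to 4854 to 5009 CPM in normal brain and 962 to 6261 CPM in tumours. Neuron markers summed to 6160 to 6473 CPM against 2769 to 7278 CPM, and 0 of 11 passed. Oligodendrocyte markers summed to 3466 to 3534 CPM against 2188 to 11417 CPM, the highest being PDGFA tumour 1. Microglia markers summed to 127 to 221 CPM against 42.8 to 423 CPM, and 0 of 11 passed. Their part in the result was not tested.

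From 6 lists of other Notch genes, 57 were tested, of which 1 rose and 3 fell in tumours against normal brain. That is 7.02% of them against 5.22% of all tested genes called in either direction, and 0 were called in IDH1_R132H against the other tumours. Among 8 other ligands and receptors, Dll4, the ligand of sprouting endothelium, rose by 1.48 on the log2 scale (standard error 0.27, adjusted p = 0.0173 by edgeR). Its level was 2.19 to 3.06 CPM in the normal brains and 4.54 to 11 CPM in tumours, with no overlap. Dlk2, a non-canonical ligand, fell by 0.96 (standard error 0.23, adjusted p = 0.0335 by edgeR). Notch4, the endothelial receptor, had 6.83 to 8.66 CPM in normal brain and 7.54 to 24.6 CPM in tumours (log2 fold change 0.95, standard error 0.26, adjusted p = 0.0542 by edgeR).

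Of 4 tested Hes and Hey relatives, Hes3, a repressor of neural progenitors, fell by 2.01 (standard error 0.51, adjusted p = 0.0418 by edgeR), from 2.96 to 4.62 CPM in normal brain to 0.166 to 2.24 CPM in tumours. Heyl and Hey2 had log2 fold changes of 0.72 and 1.07 that did not pass (edgeR adjusted p = 0.093 and 0.155). Of 15 genes of ligand endocytosis and receptor turnover, Neurl1a, a ubiquitin ligase that acts on ligands, fell by 0.86 (standard error 0.21, adjusted p = 0.0382 by edgeR). Dtx3l and Mib2 had log2 fold changes of 1.01 and -0.45 (edgeR adjusted p = 0.0546 and 0.13).

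None of 8 fringe and glycosylation genes passed, the smallest p being that of Mfng (log2 fold change 0.79, adjusted p = 0.195 by edgeR), followed by Xxylt1 (-0.15) and Gxylt1 (0.19). Of 8 tested cleavage genes none passed. Adam17, a protease that can shed the receptor, had 21.6 to 23.4 CPM in normal brain and 24 to 62.8 CPM in tumours (log2 fold change 0.88, standard error 0.24, adjusted p = 0.0517 by edgeR), and its groups did not overlap. Ncstn, a subunit of gamma-secretase, and Adam10, the main Notch sheddase, had 0.57 and 0.32 (edgeR adjusted p = 0.098 and 0.148). None of 14 nuclear complex genes passed. Rbpj itself had a log2 fold change of 0.16 (standard error 0.14, adjusted p = 0.517 by edgeR), and the 3 with the smallest p were Hdac1 (0.58), Maml2 (0.77) and Cir1 (-0.29). The genes Hes2, Hes7 and Psenen had too few counts to test.

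**Figure D5:**
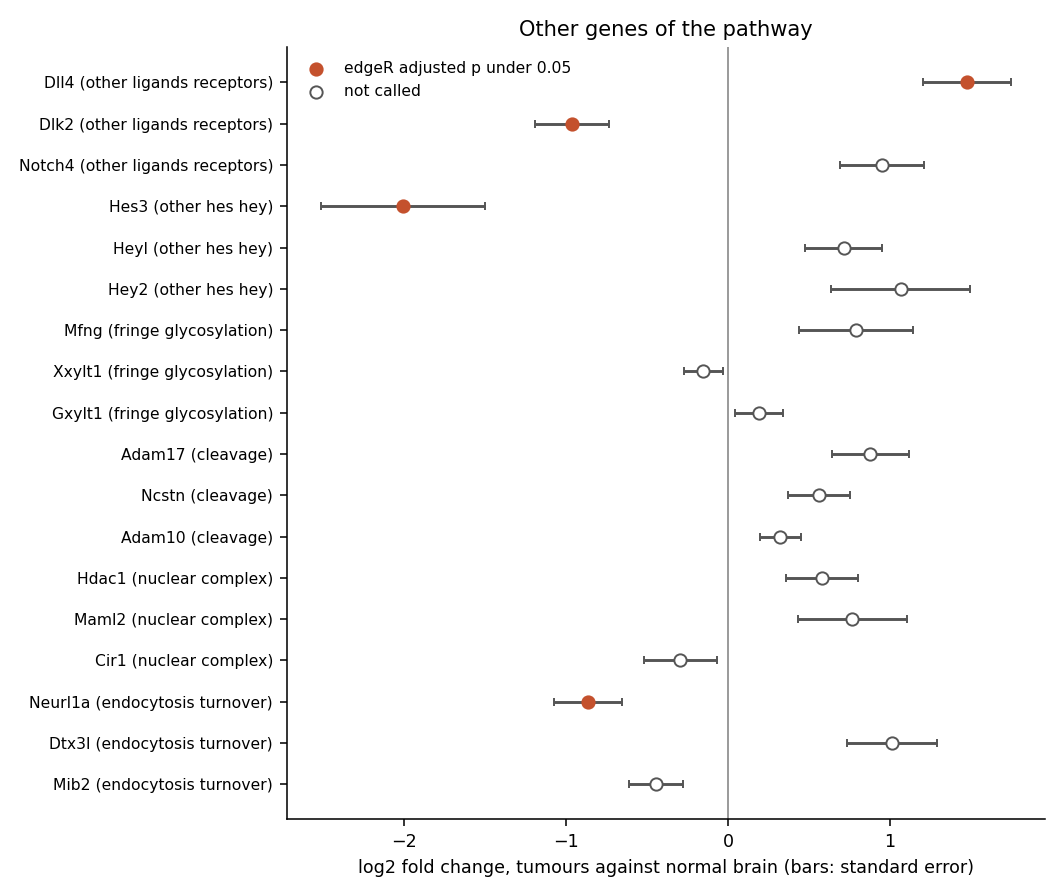
Log2 fold change in tumours against normal brain (horizontal axis) with bars of 1 standard error for the 18 other pathway genes named by rule, filled where the edgeR adjusted p is under 0.05. Dll4 lies to the right and Dlk2, Hes3 and Neurl1a to the left among the filled points.

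Genes with the pattern most like Dll3 and Jag1 were found by the root mean square difference of log2 CPM, each gene centred over the 12 libraries, among 10910 genes of sufficient level. For Dll3 they were Pnlip (0.579), Top2a (0.614), Cenpf (0.623), Cspg4 (0.651) and Sapcd2 (0.656). Top2a and Cenpf act in mitosis, and Cspg4 is the NG2 proteoglycan of precursors. For Jag1 they were Sirt2 (0.165), Plod1 (0.168), Dll1 (0.174), Svil (0.180) and Ptpro (0.180), so another ligand of the same list was the third in likeness. All of these patterns share the same 12 libraries and their contrast of tumour with normal brain.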

How the data were processed

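Total RNA was extracted from 12 formalin-fixed brain samples (RecoverAll, per the labels). The submitters' processing notes name STAR 2.5.2b, Subread, featureCounts 1.5.1, DESeq2 1.16.1 and the build GRCm38. For annotation and strand setting the sources used here give nothing. The authors deposited raw counts per gene, which were used for every main result. A second deposited table holds log2 values (regularized log, 23792 genes), used only as an alternative. Symbols and coordinates came from GENCODE M21, which named 49412 of 49671 genes.

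Genes were kept with filterByExpr (minimum count 10, total 15), leaving 17812, and scaled by TMM. A robust edgeR 4.0.16 quasi-likelihood model with 1 coefficient per group was fitted to all 12 libraries in R 4.3.3 (8 residual degrees of freedom, common biological coefficient of variation 26.5%). It gave 8 comparisons. Benjamini-Hochberg adjustment covered all tested genes, and calls needed an adjusted p under 0.05. Tumour groups were weighted equally, and other tools were DESeq2 1.42.0 and limma 3.58.1. The procedure was tested on simulated counts. Where no tool is named, an adjusted p is from edgeR. Standard errors given with edgeR results were worked back, as the absolute log2 fold change over the square root of the F statistic. Correlations use log2 CPM with a prior count of 2. Dixon's ratio was applied to the 9 tumours.

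The members and all gene lists were chosen with earlier results of these data known. Other genes named are the called genes of the pathway lists (up to 15), the 3 of each list with the smallest p, and the 5 patterns nearest to Dll3 and to Jag1 among genes with a mean log2 CPM of at least 3. Rbpj and the marker gene Olig2 were named after their values were seen. Alternatives were RLE factors, DESeq2, no filter, limma on the deposited values, voom with quality weights, removal of ribosomal-RNA-like loci, and leaving out each library or both that stand apart. The sum of mural markers without Cspg4 and the ratio to precursor markers were added after seeing the data. An item that the naming rule takes, and the gene list that holds it, are not reported here.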

Additional observations from a re-analysis of the deposited data

Results flagged for a closer look

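The Notch2 level of PDGFA tumour 1 lay far from the other tumours. At 16 CPM it was the lowest of 9, and on the log2 scale its gap to the next tumour was 0.7 of the whole range, above Dixon's 95% critical value for 9 samples. The same ratio was computed for all 10 Notch genes, and chance flags about 1 group in 20. The same tumour lay among the normal brains on the first principal component, had an astrocyte marker sum of 962 CPM against 4854 to 5009 CPM in normal brain, and had the highest oligodendrocyte marker sum, 11417 CPM. Their part in the low Notch2 value was not tested.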

How the results depend on the processing

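No paired analysis was possible because the labels carry no replicate numbers that pair samples across groups. Depth limits the low genes most: Dll3 in normal brain rests on 7 to 12 reads a library. Each cause below was not tested. RLE factors and removal of ribosomal-RNA-like loci changed no member count, and no rescaling (RLE, DESeq2 or that removal) moved the median gene by more than 0.02 on the log2 scale. Of 190 alternative values for the 10 genes in tumours against normal brain, 152 kept direction and call, 14 gained and 14 lost the call and 10 changed sign, and of 190 for IDH1_R132H against the other tumours these were 183, 4, 0 and 3.

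Members called in tumours against normal brain numbered 3, but 5 by DESeq2, 5 without the filter, 7 by voom and 6 without both libraries that stand apart, and all genes called numbered 929, but 2084, 2204, 6005 and 2928. For IDH1_R132H against normal brain (4 and 1278), members were 7 by DESeq2 and 8 by voom, and genes 2438 by DESeq2, 2468 without the filter, 7320 by voom and 2167 without both. For IDH1WT (2 and 307), members were 5 without the filter, 0 on deposited log2 values, 6 by voom and 5 without both, and genes 1271 by DESeq2, 1555, 83, 3008 and 1300. For PDGFA (1 and 54), members were 2 without the filter, 0 on log2 values and 2 without both, and genes 484 by DESeq2, 958, 0, 436 by voom and 970. Between tumours edgeR called 0 with the filter and all 12 libraries. For IDH1_R132H against the others, members were 2 without the filter and 2 by voom, and genes 25 by DESeq2, 278 without the filter, 1 on log2 values and 245 by voom. Against IDH1WT, genes were 79 without the filter. Against PDGFA, members were 1 by DESeq2, 2 without the filter and 2 by voom, and genes 137, 627, 1 on log2 values, 396 by voom and 1 without both. For IDH1WT against PDGFA, genes were 9 by DESeq2, 261 without the filter and 3 without both. Of the 17 correlations, 9 passed with all tumours and 4 without the farthest 2.

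Leaving out 1 library gave 0 to 5 members and 0 to 2536 genes in tumours against normal brain, 0 to 6 and 0 to 2303 for IDH1_R132H, 0 to 4 and 0 to 1090 for IDH1WT, and 0 to 2 and 0 to 828 for PDGFA. Between tumours the members were 0 to 1 for IDH1_R132H against PDGFA, with 0 to 43 genes, and 0 otherwise, with 0 to 1 gene for IDH1_R132H against the others and for IDH1WT against PDGFA and 0 for IDH1_R132H against IDH1WT. Leaving out 1 library gave log2 fold changes of -0.22 to 0.052 for Notch2 and -0.053 to 0.059 for Hey1 in tumours against normal brain, and of -0.081 to 0.33 for Notch2 and -0.012 to 0.33 for Notch3 in IDH1_R132H against the others, which are the members that changed sign. Notch2 in tumours against normal brain (-0.07) became 0.052 without PDGFA 1, 0.00019 without normal brain 1 and 0.056 without both libraries. Hey1 (0.01) became -0.016 without the filter, -0.013 and -0.018 without IDH1_R132H 2 and 3, -0.0054 and -0.029 without PDGFA 1 and 2, -0.053 without normal brain 2 and -0.012 without both. In IDH1_R132H against the others, Notch2 (0.11) became -0.081 without PDGFA 1 and -0.11 without both, and Notch3 (0.14) became -0.012 without IDH1_R132H 2.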

Other observations

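The contactins that can bind Notch receptors differed in direction. Cntn1 had a mean of 699 CPM in tumours and 414 CPM in normal brain (log2 fold change 0.73, SE 0.25, edgeR adjusted p = 0.0966). Cntn6 had 19.6 CPM and 29.2 CPM (log2 fold change -0.58, SE 0.26, edgeR adjusted p = 0.206). Jag2, the second Serrate-type ligand, had 21.4 CPM in tumours and 30.1 CPM in normal brain (log2 fold change -0.52, SE 0.18, edgeR adjusted p = 0.0982), the opposite sign to Jag1. None of these passed the test, and they were chosen after their values were seen.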
